A study of Mus musculus with 10 samples.

Results

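The genes described here were 9 members of the Gadd45 and RGS families, Gadd45a, Gadd45b, Gadd45g, Rgs1, Rgs2, Rgs3, Rgs14, Rgs18 and Rgs19, of 13091 genes listed. They were selected by gene symbol, and the families were chosen because the deposited log2 fold changes of Gadd45g and Rgs2 were negative after LPS. All 9 symbols had a row in each of the 4 deposited tables, and 3 belong to the Gadd45 family and 6 to the RGS family. The study asked how the intermediate filament protein vimentin affects mouse neutrophils, and RNA was sequenced from neutrophils with and without LPS, a bacterial cell wall component that activates Toll-like receptor 4.

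The cells were neutrophils grown from bone marrow progenitors of 129-SVEV mice. The progenitors were clonal lines held in the dividing state by HoxB8 under estrogen control, and they mature in culture once estrogen is withdrawn, so the cells come from immortalized lines and were not taken fresh from an animal. The groups were unstimulated Vim+/+ neutrophils, Vim+/+ neutrophils given 25 ng/mL LPS for 1 hour, unstimulated Vim-/- neutrophils, and Vim-/- neutrophils given the same LPS. There were 2 libraries in each Vim+/+ group and 3 in each Vim-/- group, 10 in all. The labels call them biological replicates without saying whether each came from its own clone. The deposited p-values come from 1 fit of these 10 libraries, with 4 groups and 4 covariates, and speak only for these samples. So many terms leave little from which to estimate the spread between replicates, and the SEs, intervals and p-values share that limit. The labels call the cells without vimentin Vimentin KD and the methods describe knockout mice, and the name Vim-/- is used here. Vim, the gene targeted, had a log2 fold change of -13.56 (SE 0.335) for Vim-/- over Vim+/+ in unstimulated cells and of -12.44 (SE 0.243) after LPS. Both values have the sign that the labels call for, and a fitted fold of a gene near 0 gives no size.

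The deposited values are results of comparisons, so the level in single libraries and the depth of each library were not analysed here. The baseMean is the mean normalized count over the libraries, and every fold change below is on a log2 scale with the standard error (SE) of the deposited fit. A gene is named as called where its adjusted p was under 0.05 and its absolute log2 fold change over 1. In bulk RNA, fewer cells of a type and less RNA per cell cannot be told apart. All 14 neutrophil markers had a row, and none of the 14 passed the test with LPS in either genotype. Of markers of other cells, all 6 of the eosinophil, basophil or mast cell list had a row, among them Epx at a baseMean of 142776 and Prg2 at 268319. Of the lymphocyte list 2 markers had a row, and the T cell receptor genes Cd3e and Cd3g had none.

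Gadd45 proteins are small nuclear proteins that appear when cells arrest growth or meet DNA damage and other stress. They bind and activate MAP3K4, a kinase upstream of p38 and JNK, and they also bind the cell cycle inhibitor p21, the replication clamp PCNA and the complex of Cdk1 and cyclin B1. RGS (regulator of G protein signalling) proteins speed up the hydrolysis of GTP by G protein alpha subunits and so shorten the signal from G protein-coupled receptors. Neutrophils follow chemoattractants with such receptors, most of which couple to Gi.

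The promoters of the 2 genes that named the group and of Gadd45a, the Gadd45 gene with the opposite sign, are shown because they let the sequence next to the start site be read beside the LPS values. The 250 bases before the RefSeq start are given 5′ to 3′ on the gene's own strand, from GRCm38.p6. Capitals mark a match to the CCAAT box, to TATAAA as the TATA box, or to TGACG as the half-site of the cyclic AMP response element, which on the other strand reads CGTCA.
Gadd45g, chr13:51846425-51846674, plus strand: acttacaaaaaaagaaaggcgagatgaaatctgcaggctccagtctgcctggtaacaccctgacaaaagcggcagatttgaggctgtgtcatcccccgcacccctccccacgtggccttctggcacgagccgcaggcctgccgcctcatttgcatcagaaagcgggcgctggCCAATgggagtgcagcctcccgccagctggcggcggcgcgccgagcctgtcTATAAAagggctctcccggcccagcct
Rgs2, chr1:144004150-144004399, minus strand: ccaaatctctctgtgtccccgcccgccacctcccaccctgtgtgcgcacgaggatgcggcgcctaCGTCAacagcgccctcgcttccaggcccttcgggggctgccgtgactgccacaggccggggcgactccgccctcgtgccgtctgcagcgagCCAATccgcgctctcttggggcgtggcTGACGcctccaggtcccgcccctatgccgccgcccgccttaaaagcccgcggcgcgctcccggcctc
Gadd45a, chr6:67037408-67037657, minus strand: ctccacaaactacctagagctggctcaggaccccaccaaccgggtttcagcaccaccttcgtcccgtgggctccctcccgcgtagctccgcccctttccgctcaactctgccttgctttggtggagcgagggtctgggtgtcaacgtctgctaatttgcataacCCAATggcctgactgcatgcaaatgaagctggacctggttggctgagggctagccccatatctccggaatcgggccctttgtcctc
Of the 9 members, 6 had a promoter entry in the RefSeq table, and Rgs1, Rgs14 and Rgs18 had none. The search covered both strands from 250 bases before to 50 after the start, and no match of 1 motif overlapped another in the windows printed. Rgs2 held TGACG at -185 on the minus strand and at -67 on the plus strand, with CCAAT at -94. Gadd45g held CCAAT at -78 and TATAAA at -27, and Gadd45a held CCAAT at -86 only. In the windows not printed, Gadd45b had CCAAT at -139 and -100 and TATAAA at -46, and the 2 starts of Rgs3 had TATAAA at -100 and at -177. Across 32817 promoters of the same length, 20.8% held TGACG, 37.4% CCAAT and 13.6% TATAAA. The AP-1 motif TGANTCA, present in 7.81% of promoters, and the NF-kB consensus, present in 8.46%, had no match in the entries of the 6 members. A match here describes letters in a window and is not a measured binding site.

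Both genotypes gave the same split of the members after LPS. Gadd45g and Rgs2 were called lower, Gadd45a and Rgs1 were called higher, and the other 5 were not called. The description of the group as repressed by LPS thus held for 2 of the 9 genes. In Vim+/+ neutrophils 2 of 9 members were called higher, where 1.08% of all genes tested were, and 2 of 9 were called lower, where 0.229% were. The counts in Vim-/- neutrophils were also 2 higher and 2 lower, against 0.917% and 0.243% of all genes. The shares for Vim+/+ depend on the scaling, since calls over all genes went from 142 higher and 30 lower to 100 and 15 once the Wald statistics were centred and rescaled, while Rgs1 was lost from the members. By adjusted p alone the counts were 4 in Vim+/+ (2.17% of all genes) and 5 in Vim-/- (2.21%), where Rgs3 was added. Rgs3 lay close to that threshold in both genotypes and changed sides of it under 2 of the alternatives in each, and its fold change was the larger in Vim+/+. Because the genes were chosen by these comparisons, the counts and the values of the LPS response are given as a description. The median log2 fold change of the 9 was -0.14 in Vim+/+ and -0.25 in Vim-/-, against 0.01 and -0.02 over all genes.

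**Figure D1:**
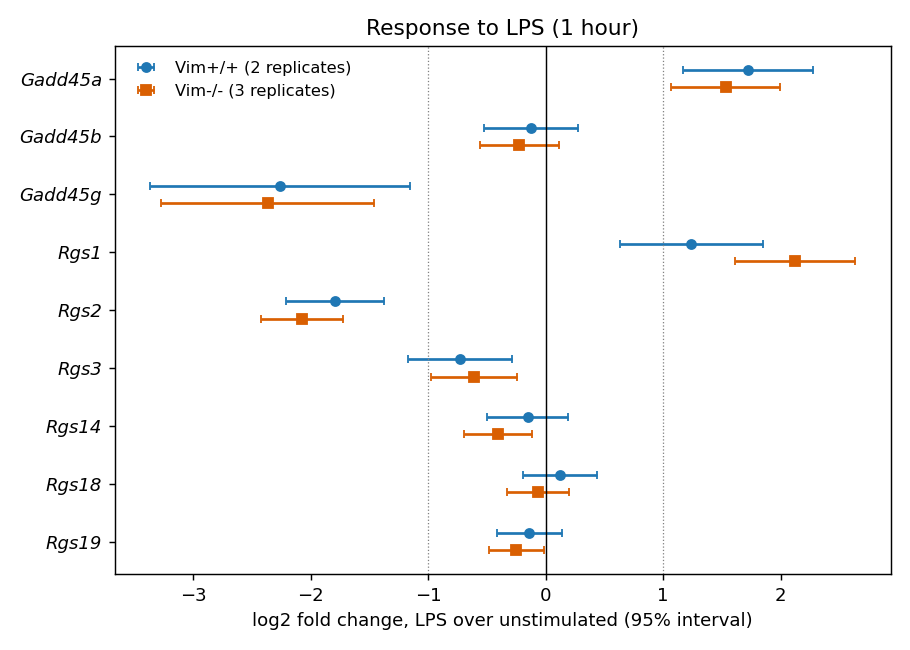
Log2 fold change of LPS over unstimulated for each of the 9 genes, with 95% intervals from the deposited standard errors, in Vim+/+ (circles, 2 replicates) and Vim-/- (squares, 3 replicates) neutrophils. Dotted lines mark a log2 fold change of 1 in either direction. Gadd45g and Rgs2 lie below -1 in both genotypes, Gadd45a and Rgs1 above 1.

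Gadd45g, a gene that cytokines induce in other blood cells, had a log2 fold change of -2.26 (SE 0.564; 95% interval -3.37 to -1.16) in Vim+/+ neutrophils. This is a level 4.80-fold lower after 1 hour. In Vim-/- neutrophils the value was -2.37 (SE 0.463; -3.27 to -1.46), or 5.16-fold lower. Ranked by Wald statistic, the fold change divided by its SE, Gadd45g stood 18th from the lowest of 13091 genes in Vim+/+ and 20th in Vim-/-. Its baseMean was 437, and 37.9% of the genes listed lay at or below it. Gadd45g lies at chr13:51846678-51848468 on the plus strand (mm10, GENCODE M21).

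Gadd45a, the family member classically induced by p53 after DNA damage, went the other way. Its log2 fold change was 1.72 (SE 0.282; 1.17 to 2.27) in Vim+/+ and 1.53 (SE 0.237; 1.07 to 1.997) in Vim-/-, so that it stood 3.30-fold and 2.89-fold higher. The gene (chr6:67035096-67037457, minus strand) shares exon sequence with the antisense gene E230016M11Rik, which was listed at a baseMean of 199.9 with 1.21 (SE 0.558) in Vim+/+ and 0.89 (SE 0.470) in Vim-/-. Whether reads were counted by strand is not given in the sources used here, so reads of this pair cannot be told apart. Gadd45b, which NF-kB is known to induce in other cells, had -0.13 (SE 0.204; -0.53 to 0.27) and -0.22 (SE 0.171; -0.56 to 0.11), and both intervals include 0. The 3 Gadd45 genes therefore had 3 different outcomes after 1 hour of LPS, 1 higher, 1 lower and 1 with no detectable difference.

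Rgs2, an RGS protein that acts mainly on the Gq class, had the lowest Wald statistic of all 13091 genes in Vim-/- neutrophils and ranked 2nd from the lowest in Vim+/+. The log2 fold change was -1.79 (SE 0.214; -2.21 to -1.38) in Vim+/+ and -2.07 (SE 0.180; -2.43 to -1.72) in Vim-/-. Its level was thus 3.47-fold and 4.21-fold lower after LPS. Rgs2 is a well-counted gene with a baseMean of 12086. Rgs1, which restrains chemokine-driven migration of lymphocytes, had 1.24 (SE 0.311; 0.63 to 1.85) in Vim+/+ and 2.12 (SE 0.261; 1.61 to 2.64) in Vim-/-, or 2.36-fold and 4.36-fold higher. Its call in Vim+/+ was lost when the Wald statistics of all genes were centred and rescaled to unit spread.

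The other 4 RGS genes were not called. Rgs3, a large RGS protein with long and short forms, had -0.73 (SE 0.224; -1.17 to -0.29) in Vim+/+ and -0.61 (SE 0.186; -0.97 to -0.24) in Vim-/-. Both values are negative with intervals that leave out 0, and both are smaller than the fold threshold. Rgs14, which also binds inactive Gi through a GoLoco motif, had -0.15 (SE 0.176; -0.50 to 0.19) and -0.40 (SE 0.148; -0.69 to -0.12). Rgs19, also called GAIP and a partner of Gi family subunits, had -0.14 (SE 0.142; -0.42 to 0.14) and -0.25 (SE 0.119; -0.49 to -0.02). Rgs18, best known from platelets and their precursors, had 0.12 (SE 0.161; -0.19 to 0.44) and -0.07 (SE 0.135; -0.33 to 0.20), the smallest pair of values among the RGS members.

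Rgs2 and Rgs1, which had opposite signs, lie in 1 cluster of RGS genes on chromosome 1. From Rgs2 (chr1:143999338-144004161) to Rgs18 (chr1:144752683-144775435) the span is 776 kb and holds 5 protein-coding genes in the order Rgs2, Rgs13, Rgs1, Rgs21 and Rgs18, and 0 that are not RGS genes. Rgs13 and Rgs21 had no row in the tables. The start of Rgs1 (chr1:144242296-144249242) lies 245 kb from that of Rgs2, and the start of Rgs18 lies 771 kb from it, all 3 on the minus strand. Along this stretch the log2 fold change with LPS in Vim-/- went from -2.07 at Rgs2 to 2.12 at Rgs1 and -0.07 at Rgs18. The 4 listed genes within 1 Mb on the other side, Cdc73, Glrx2, Trove2 and Uchl5, lay between -0.24 and 0.12 in Vim+/+ and between -0.35 and 0.11 in Vim-/-, and 0 of them were called. The other members sit apart, Gadd45b on chr10:80930073-80932204, Rgs14 on chr13:55369732-55384687, Rgs19 on chr2:181688419-181693977 and Rgs3 on chr4:62559847-62704001.

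**Figure D2:**
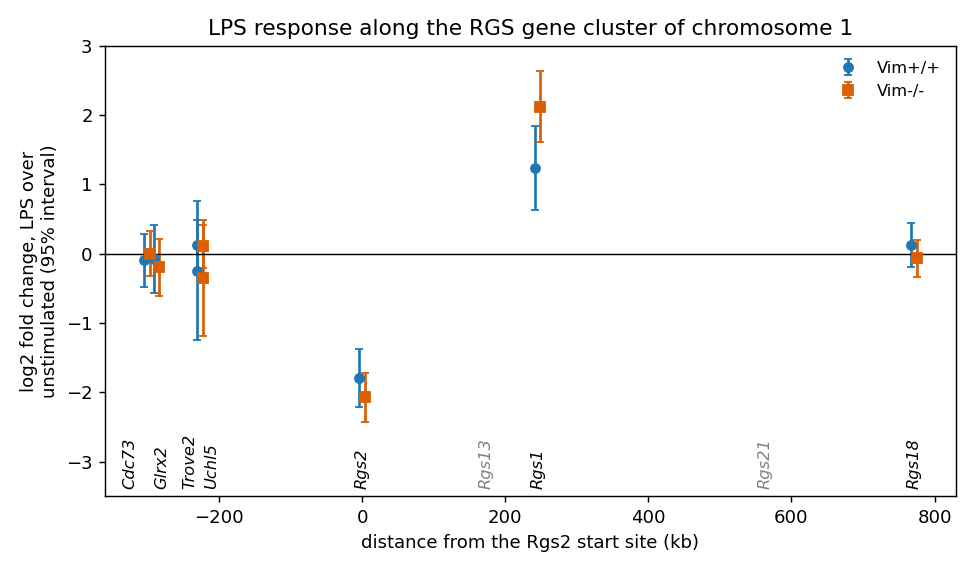
Log2 fold change of LPS over unstimulated, with 95% intervals, against distance in kb from the start of Rgs2, for the listed genes of the chromosome 1 RGS cluster and its flank, in Vim+/+ (circles) and Vim-/- (squares) neutrophils. Names in grey had no row, and points of the genotypes are shifted slightly apart. Rgs2 and Rgs1 lie on opposite sides of 0, while Rgs18 and the 4 flanking genes lie near 0.

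Levels of different genes can be set side by side only per length. Divided by the length of the longest principal transcript, the baseMean per kb was 8906 for Gadd45a, 6363 for Rgs19, 4001 for Rgs2, 3049 for Gadd45b, 2562 for Rgs18 and 1472 for Rgs14. It was 427 for Rgs3, 408 for Gadd45g and 188 for Rgs1. The pair called lower thus held 1 gene at a high level and 1 at a low level, and so did the pair called higher. These are means over all 10 libraries, so a gene called in LPS has a different level in each condition.

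The fitted level in each group can be written relative to unstimulated Vim+/+ cells, which are set to 0. Gadd45g was highest in the unstimulated groups (0 in Vim+/+ and -0.11 in Vim-/-) and stood at -2.26 and -2.48 after LPS. Rgs2 gave the same order, with -0.03 in unstimulated Vim-/- cells, -1.79 in Vim+/+ and -2.10 in Vim-/- cells after LPS. For Gadd45a the order from the lowest was unstimulated Vim-/- (-0.37), unstimulated Vim+/+, Vim-/- after LPS (1.17) and Vim+/+ after LPS (1.72). Rgs1 was also lowest in unstimulated Vim-/- cells (-0.58), and it was highest in Vim-/- cells after LPS (1.55), above Vim+/+ cells after LPS (1.24). Rgs3 had its highest level in unstimulated Vim-/- cells (0.55) and its lowest in Vim+/+ cells after LPS (-0.73), with Vim-/- cells after LPS between them (-0.05). Among the members that were not called with LPS, the spread from the lowest to the highest group was 1.28 log2 units for Rgs3, 0.53 for Rgs14, 0.48 for Rgs18, 0.44 for Gadd45b and 0.25 for Rgs19. The order of the genotypes within a condition is not resolved where their difference did not pass the test. This was so for all members except Rgs3 in both conditions and Rgs18 after LPS. Those exceptions passed by adjusted p alone, were not called, and did not pass once the Wald statistics were centred and rescaled, so their order depends on the setting.

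**Figure D3:**
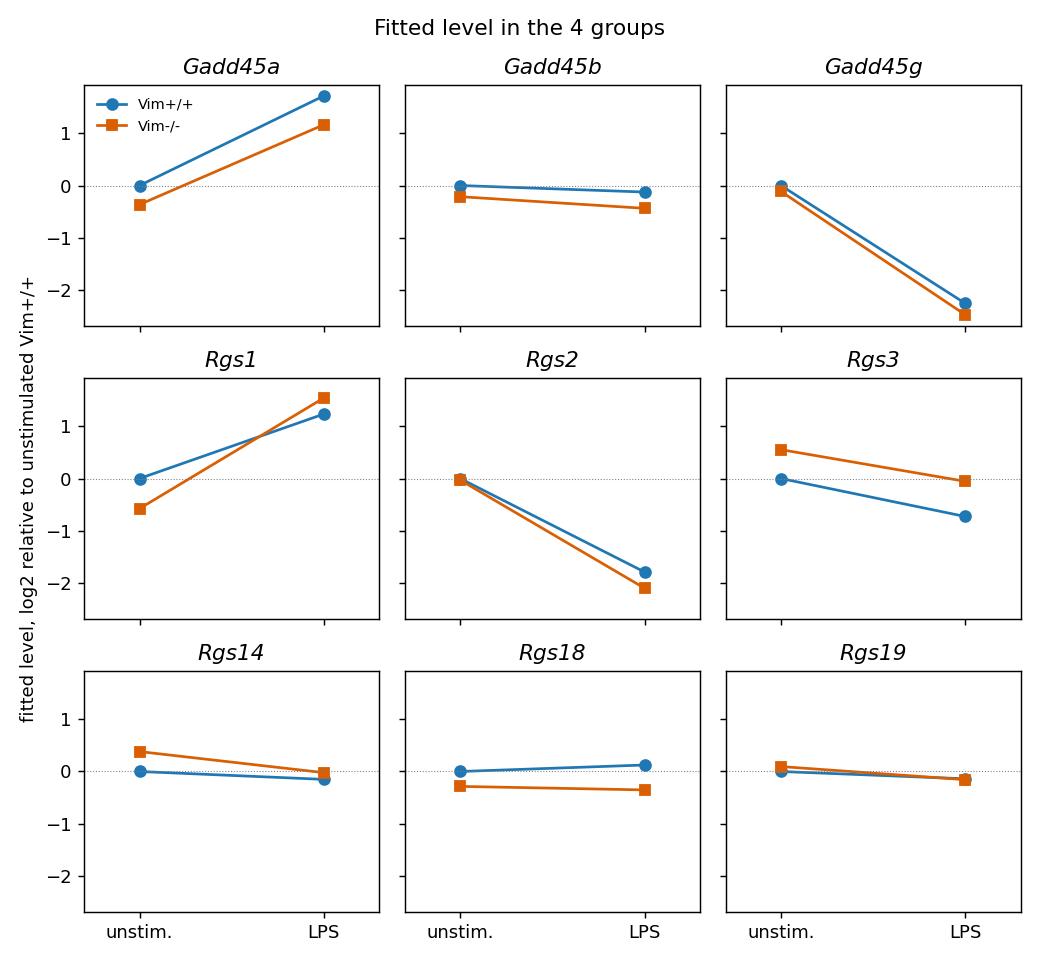
Fitted level of each gene in the 4 groups, in log2 units relative to unstimulated Vim+/+ neutrophils, joined from unstimulated to LPS for Vim+/+ (circles) and Vim-/- (squares). Values are built from the deposited fold changes, so the point of unstimulated Vim+/+ is 0 for every gene, and no errors are drawn. The lines of Gadd45g and Rgs2 fall and those of Gadd45a and Rgs1 climb in both genotypes, and the lines of Rgs1 cross.

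The SE of a member can be set beside that of genes with a like baseMean in the same fit. It depends on the fitted dispersion and on the level in each group, and the spread between single libraries was not analysed here. Gadd45a had an SE 1.75 times the median of the 872 genes with a baseMean within 1.5-fold of its own in the LPS comparison of Vim-/- cells, and 97.5% of those genes had a lower SE. For Gadd45g the ratio was 1.50 among 1537 genes, with 95.7% lower, and for Rgs2 it was 1.35 among 783 genes, with 90.9% lower. Rgs19 stood at the other end, at 0.866 of the median of 973 genes with 7.61% lower. Rgs1, the other gene called with LPS, was nearer the middle, at 1.04 times the median of 1859 genes with 58.5% lower.

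**Figure D4:**
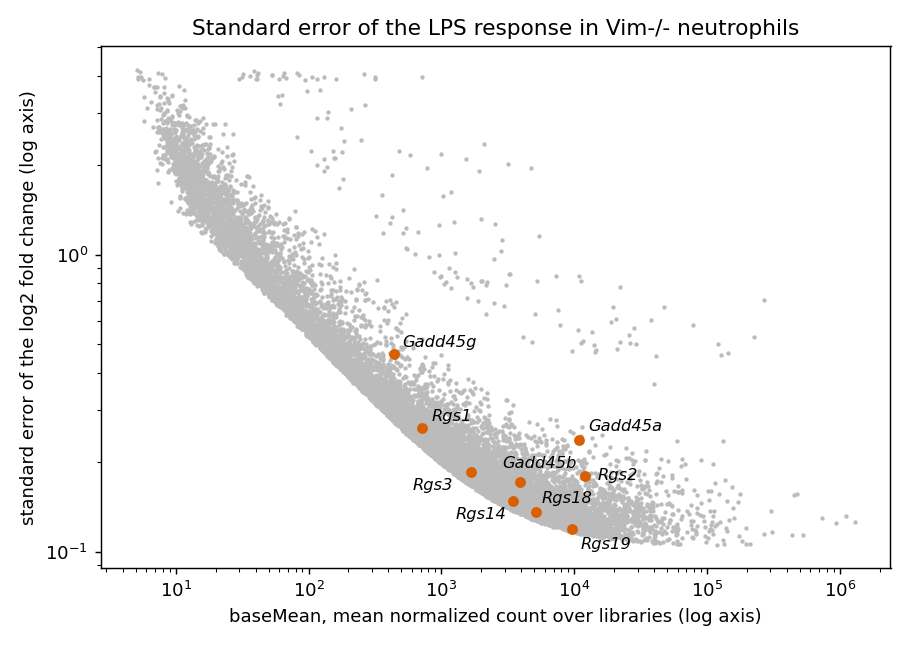
Standard error of the LPS log2 fold change in Vim-/- neutrophils against baseMean, both on log axes, for all 13091 genes (grey) and the 9 members (named points). Gadd45a, Gadd45g and Rgs2 lie near the upper edge of the main band of genes, and Rgs19 near its lower edge.

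The comparison of genotypes was not used to choose the genes, and it asks whether cells without vimentin differ in these transcripts. The genotypes are separate clonal lines from different mice, so loss of vimentin cannot be told apart from differences between lines or donors. No member was called in unstimulated cells, where 7.14% of all genes were, and none after LPS, where 5.32% were. Those shares depend on the scaling, since the calls over all genes went from 917 to 160 and from 683 to 233 once the Wald statistics were centred and rescaled. At an unadjusted p under 0.05 there were 3 members in each (Rgs1, Rgs3 and Rgs14 when unstimulated, and Gadd45a, Rgs3 and Rgs18 after LPS). As 29.5% and 22.1% of all genes met that mark, such a count is no result about the members. By the adjusted p of the deposited Wald test alone, 1 member was higher in unstimulated Vim-/- cells (12.6% of all genes were) and 0 were lower (6.15% of all genes). After LPS 1 member was higher (6.68% of all genes) and 1 was lower (4.35%). The medians of the 9 log2 differences were -0.11 and -0.22, against 0.08 and 0.03 over all genes.

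Rgs3 was higher in Vim-/- neutrophils in both conditions. The log2 difference was 0.55 (SE 0.205, adjusted p 0.0392), or 1.47-fold, when unstimulated and 0.68 (SE 0.206, adjusted p 0.0147), or 1.60-fold, after LPS. The adjusted p depended on the setting. It was 0.0762 when unstimulated once fold changes were centred on the median gene, and 0.902 and 0.452 in the 2 conditions once the Wald statistics were centred and rescaled, over ranges of 0.0345 to 0.902 and 0.0130 to 0.452.

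Rgs18 was lower in Vim-/- cells after LPS, by a log2 difference of -0.48 (SE 0.149, adjusted p 0.0177), or 1.39-fold. Rescaled statistics gave an adjusted p of 0.399, the highest of a range from 0.0105. In unstimulated cells the difference was -0.29 (SE 0.149, adjusted p 0.179). Since Rgs18 is known from the megakaryocyte lineage, its marker list stands beside it. Of the erythroid or megakaryocyte markers 3 had a row. Itga2b, the platelet integrin alpha IIb, was at -1.12 (SE 0.168, adjusted p 2.53e-09) when unstimulated and -0.93 (SE 0.167, adjusted p 1.74e-06) after LPS. Pf4, at a baseMean of 38.1, had 0.36 (SE 1.20) and 1.27 (SE 1.46), and Gp1bb, at 43.1, was called higher in both, with a fold change for LPS in Vim+/+ listed at exactly 0, so its fitted fold gives no size. The part of such cells in the Rgs18 difference was not tested.

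The pair lower after LPS showed no genotype difference that passed the test. Rgs2 had -0.03 (SE 0.198, 95% interval -0.42 to 0.36, adjusted p 0.940) when unstimulated and -0.31 (SE 0.198, -0.70 to 0.08, adjusted p 0.371) after LPS. Gadd45g had -0.11 (SE 0.505, -1.10 to 0.88, adjusted p 0.911) and -0.22 (SE 0.520, -1.24 to 0.80, adjusted p 0.871), and both intervals still hold a difference of -1 log2 unit. The intervals of Rgs2 leave out a difference of 1 log2 unit in both conditions.

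The remaining members did not pass either. Gadd45a had -0.37 (SE 0.261, adjusted p 0.360) and -0.55 (SE 0.261, adjusted p 0.172), and Rgs1 had -0.58 (SE 0.291, adjusted p 0.160) and 0.31 (SE 0.283, adjusted p 0.581), with the sign turning between conditions. Rgs14 had 0.38 (SE 0.163, adjusted p 0.0832) and 0.13 (SE 0.163, adjusted p 0.721). The values of Gadd45b were -0.21 (SE 0.189, adjusted p 0.477) and -0.31 (SE 0.189, adjusted p 0.333), and those of Rgs19 were 0.09 (SE 0.131, adjusted p 0.677) and -0.02 (SE 0.131, adjusted p 0.966). Rgs19 had the narrowest intervals, -0.16 to 0.35 and -0.27 to 0.24.

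**Figure D5:**
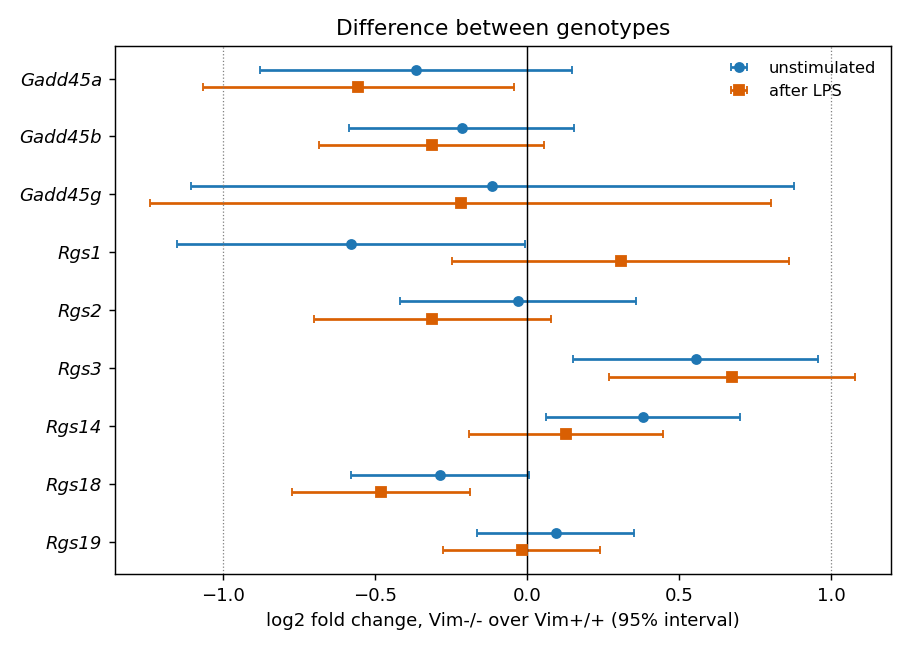
Log2 difference of Vim-/- over Vim+/+ neutrophils for the 9 genes, with 95% intervals, unstimulated (circles) and after LPS (squares). Dotted lines mark a log2 difference of 1 in either direction. No point lies beyond them, Rgs3 lies above 0 in both conditions, and the values of Rgs1 lie on opposite sides of 0.

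Cell markers moved with genotype in the same tables, and their part in the values of the members was not tested. Of 6 early granulocyte progenitor markers, 3 were called lower in unstimulated Vim-/- cells (Ctsg at -2.55, Prtn3 at -1.14 and Cd34 at -1.01), and the same 3 were lower by adjusted p after LPS. Over all genes 6.15% and 4.35% were lower by adjusted p. Of 14 neutrophil markers 6 were higher by adjusted p when unstimulated and 2 after LPS (12.6% and 6.68% of all genes were), with Camp, a granule peptide gene, called after LPS at 1.16 (SE 0.176). The list medians were -1.08 and -0.73 for early progenitors and 0.32 and 0.22 for neutrophils. Of the 6 listed monocyte or macrophage markers 2 were lower when unstimulated, and after LPS 2 were lower and 1 higher (Csf1r called at -1.19, Mrc1 at 4.15). In the list of eosinophils, basophils and mast cells, 2 of 6 were lower in each condition (Siglecf and Cpa3). Of the lymphocyte list Nkg7, at a baseMean of 949, was lower in both conditions (-1.63 and -1.46) and Cd79a, at 83.8, after LPS (-4.19). With LPS, 0 markers of the 6 lists passed the test in either genotype.

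Whether the LPS response itself differed between genotypes was tested as the difference of the log2 fold changes, Vim-/- minus Vim+/+. The same quantity follows from the genotype comparisons, with which it shares its libraries. Gadd45g and Rgs2 are left out of the count, since their LPS values chose the group. None of the other 7 members passed at an adjusted p under 0.05, where 0.0764% of all genes did, and 1 had an unadjusted p under 0.05, as 6.04% of all genes had. That gene was Rgs1, whose difference was 0.89 (SE 0.406, 95% interval 0.09 to 1.68), or 1.85-fold, with an unadjusted p of 0.0289 and an adjusted p of 0.783. For the genes that named the group the difference is given with no p. It was -0.28 (SE 0.279, -0.83 to 0.27) for Rgs2, which leaves out a difference of 1 log2 unit, and -0.10 (SE 0.729, -1.53 to 1.33) for Gadd45g, which does not. The other 6 differences ran from -0.25 (SE 0.230, adjusted p 0.970) for Rgs14 to 0.12 (SE 0.291) for Rgs3, with Gadd45a at -0.19 (SE 0.368), Rgs18 at -0.19 (SE 0.210), Rgs19 at -0.11 (SE 0.185) and Gadd45b at -0.10 (SE 0.266). Their lowest adjusted p was that of Rgs14.

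The counts for the lists that follow are to be read against the shares over all genes given above. For single genes, the alternative settings were reported only among the members. Rescaling cut the calls over all genes between genotypes and for LPS in Vim+/+, so calls of list genes there may not hold under it. In the rest of the RGS family 1 gene passed the test with LPS. Of 21 other genes with an RGS domain or named for one, 11 had a row, and the 1 that passed, Rgs10, is named after its values were seen. Rgs10, a short RGS protein of microglia and macrophages, fell in both genotypes, by adjusted p alone, at -0.92 (SE 0.252, adjusted p 0.0171) in Vim+/+ and -0.68 (SE 0.203, adjusted p 0.0376) in Vim-/-. In Vim+/+ its Wald statistic of -3.65 was smaller in size than that of Rgs1 (3.98), which did not pass there under rescaling. The medians of the list were 0.33 and 0.15. Rgs11, at a baseMean of 139, was called higher in Vim-/- cells, at 3.91 (SE 1.11, adjusted p 0.00464) unstimulated and 3.53 (SE 1.03, adjusted p 0.00956) after LPS. By adjusted p alone Snx13 was also higher and Axin1 lower when unstimulated, and Rgs10 was higher after LPS at 0.66 (SE 0.229, adjusted p 0.0379). Rgs16, Rgs13 and Rgs21 were among the 10 with no row.

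Of 30 genes for G protein subunits, the targets of RGS proteins, 21 had a row and 0 passed the test with LPS in either genotype. Gnai2, the main Gi alpha subunit of leukocytes, had -0.06 (SE 0.141) and -0.11 (SE 0.119) at a baseMean of 105467. Gnb5, the beta subunit that pairs with the Rgs11 class of RGS proteins, was called higher in Vim-/- cells at 1.54 (SE 0.400, adjusted p 0.00166) and 1.24 (SE 0.395, adjusted p 0.0221). After LPS its Wald statistic of 3.12 was below that of Rgs3 (3.27), which did not pass there under rescaling. By adjusted p alone Gnai3 was higher and Gngt2 lower when unstimulated.

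Among receptor kinases, arrestins and G protein modulators 12 of 15 symbols had a row, and 0 passed with LPS. Of the 3 without a row, Grk2 and Grk3 are newer names of Adrbk1 and Adrbk2, which were listed. Gpsm2, a GoLoco protein like Rgs14, was called higher in Vim-/- cells after LPS at 1.26 (SE 0.331, adjusted p 0.00314), while Gpsm3 was lower by adjusted p in both conditions at -0.72 (SE 0.186 in each). Grk6, a receptor kinase of leukocytes, was higher by adjusted p in both, at 0.62 and 0.52, and Arrb1 when unstimulated at 0.56. Adrbk2 was called higher in both, and its fold change for LPS in Vim+/+ was listed at 0, so its fitted fold gives no size.

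The receptors that feed these G proteins included genes that rose. Of 12 Gi-coupled receptors of neutrophils, all with a row, 2 were called higher with LPS in each genotype. Over all genes 1.08% were called higher in Vim+/+ and 0.917% in Vim-/-. Fpr1, the formyl peptide receptor, rose by 1.33 (SE 0.259, adjusted p 3.75e-05) and 1.43 (SE 0.218, adjusted p 7.78e-09), and Hcar2, a receptor for niacin and hydroxybutyrate, by 1.36 (SE 0.221, adjusted p 1.60e-07) and 1.40 (SE 0.186, adjusted p 1.08e-11). Ptafr, the receptor for platelet-activating factor, was higher by adjusted p alone in both, and S1pr4 lower in Vim-/-. The list medians were -0.05 and -0.19. Between genotypes, 4 of the 12 were higher in Vim-/- cells by adjusted p when unstimulated (Cxcr2, Fpr2, C5ar1 and S1pr4) and 2 after LPS (Fpr2 and C5ar1), where 12.6% and 6.68% of all genes were, and none was called.

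On the Gadd45 side, 15 of 16 binding partners and downstream kinases had a row. Map3k4, the kinase that Gadd45 proteins activate, had -0.09 (SE 0.307) and 0.17 (SE 0.258) with LPS. Gadd45gip1, which encodes a mitochondrial protein that binds Gadd45 proteins, was called lower with LPS in Vim+/+ at -1.004 (SE 0.303, adjusted p 0.0444). That adjusted p was higher than the one of Rgs1, whose call in Vim+/+ was lost once the Wald statistics were centred and rescaled. In Vim-/- Gadd45gip1 had 0.25 (SE 0.253), and the difference between genotypes did not pass (1.26, SE 0.395, adjusted p 0.343). Cdkn1a, which encodes p21, rose by adjusted p alone with LPS in Vim-/- at 0.51 (SE 0.113), had 0.20 (SE 0.134) in Vim+/+ with a difference that did not pass (0.31, SE 0.176, adjusted p 0.875), and was called lower in unstimulated Vim-/- than Vim+/+ cells at -1.04 (SE 0.125, adjusted p 1.66e-14). After LPS its genotype difference was -0.73 (SE 0.124), under the fold threshold. By adjusted p alone Mapk14, the p38 alpha kinase, was lower in Vim-/- cells in both conditions at -0.37 and -0.45, Ccnb1 higher in both at 0.52 and 0.69, Cdk1 higher after LPS at 0.82, and Tdg and Ercc5 higher when unstimulated at 0.69 and 0.94.

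Other genes of growth arrest and DNA damage or stress included some that rose with LPS, as Gadd45a did. Of 13 in the list 12 had a row, with 2 called higher in Vim+/+, 3 in Vim-/- and 0 called lower. The shares of all genes called higher were 1.08% in Vim+/+ and 0.917% in Vim-/-. Ppp1r15a, also known as Gadd34, rose by 1.97 (SE 0.211, adjusted p 3.92e-18) and 2.11 (SE 0.178, adjusted p 5.94e-30). Btg2, an antiproliferative gene, rose by 1.60 (SE 0.172, adjusted p 7.28e-18) and 1.47 (SE 0.134, adjusted p 2.21e-25), and it was also called higher in Vim-/- than Vim+/+ cells at 1.73 and 1.60. Plk3, a stress-activated kinase, was called only in Vim-/-, at 1.53 (SE 0.323, adjusted p 0.000195) against 0.50 (SE 0.385) in Vim+/+, and the difference of 1.03 (SE 0.502) had an adjusted p of 0.816. By adjusted p alone Ddit4 was higher in both genotypes, Mdm2 higher in Vim+/+ and Sesn2 lower in Vim+/+. Between genotypes Ppp1r15a and Ddit4 were lower in Vim-/- cells in both conditions and Ier5 was higher in both, with Btg1 higher after LPS, all by adjusted p alone. The list medians were 0.20 and 0.30 with LPS.

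The genes most like Gadd45g and Rgs2 were sought by Euclidean distance over 3 log2 fold changes, LPS in each genotype and genotype when unstimulated, among 10321 genes with a baseMean of at least 100. These comparisons share libraries, and both genes were picked for falling in 2 of the 3, so that their closeness follows in large part from the choice. The distances are a description, and they are not large beside the SEs of the fold changes of Gadd45g (0.564 and 0.463 with LPS), so their order is not resolved. Nearest to Gadd45g was Rgs2, at a distance of 0.559, followed by Rhov at 1.13 and Lpar5 at 1.32. From Rgs2 the order was Gadd45g at 0.559, Rhov at 0.612 and Ppfibp2 at 0.778. Rhov had -1.49 (SE 0.515) and -1.67 (SE 0.426) with LPS.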

How the data were processed

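RNA of 10 libraries was sequenced by the authors, 2 Vim+/+ and 3 Vim-/- replicates with and without LPS, after poly(A) selection. By the submitters' processing notes, reads were handled with cutadapt 4.4 and STAR 2.7.10b on mm10, and per the methods the authors fitted DESeq2 1.26.0 with 4 RUVSeq covariates. The gene annotation and strand setting are not given in the sources used here. The 4 deposited tables hold only comparisons: baseMean (a signal, the authors' mean normalized count), the log2 fold change and its SE, the Wald statistic (a score), and the p-value and adjusted p-value from the authors' DESeq2 test. Depth is therefore unknown, precision is carried by the SE, and values of single replicates were not analysed here.

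Python 3.11.15 with numpy 2.4.6, scipy 1.17.1, pandas 2.3.3 and matplotlib 3.10.9 was used. Signs in the genotype tables were reversed so that a positive value means higher in Vim-/-. Intervals are 95% normal. The difference of LPS responses had the root of the summed squared SEs as its error, and its two-sided p from the normal distribution was adjusted by Benjamini-Hochberg over 13091 genes. Positions and lengths came from GENCODE M21, promoters from RefSeq on GRCm38.p6. The members and lists were chosen with earlier results of these data known. Genes named were the 9 members, Vim, up to 3 called genes a list and comparison, the 3 nearest genes, and the cluster's neighbours. Genes passing by adjusted p alone, and list genes given for their role or level, were named after their values were seen. For the deposited comparisons the alternatives were no fold threshold, adjustment over all genes, a baseMean of at least 100, centred fold changes, and centred and rescaled statistics. For the difference of LPS responses they were the difference taken from the genotype comparisons, a baseMean of at least 100, centred and rescaled statistics, and an added fold threshold.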

Additional observations from a re-analysis of the deposited data

How the results depend on the processing

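Dropping the fold threshold raised the count of members that differed between genotypes from 0 to 1 when unstimulated (Rgs3) and from 0 to 2 after LPS (Rgs3 and Rgs18), by the construction of the rule. It also raised the count for LPS in Vim-/- neutrophils from 4 to 5 (Rgs3). When Wald statistics were centred and rescaled to a robust spread of unit size, the count for LPS in Vim+/+ neutrophils went from 4 to 3 (Rgs1), by the construction of that setting, which divides by a spread of 1.17 there. The spread was 0.947 for LPS in Vim-/-, 1.83 for the genotype comparison when unstimulated and 1.50 after LPS, and calls over all genes in those 2 went from 917 to 160 and from 683 to 233. With the same rescaling, calls for LPS in Vim+/+ went from 142 higher and 30 lower to 100 and 15. Without the fold threshold, calls over all genes rose to 2410 and 1416 in those 2, from 172 to 284 for LPS in Vim+/+ and from 143 to 272 for LPS in Vim-/-. With a baseMean of at least 100, calls for the difference of LPS responses went from 10 to 4. The difference of LPS responses gave 0 of all 9 members, Gadd45g and Rgs2 included, in its 4 alternatives. In 1 of these, an added fold threshold, calls could only be removed, so its outcome was fixed. Over the values of single members, 211 kept their direction and their call by adjusted p and fold together. A further 4 were called only without the fold threshold, 1 call was lost, and 0 reversed. Only centring of the fold changes alters a log2 value, so no direction could reverse under the other alternatives. The values include those of Gadd45g and Rgs2, whose LPS fold changes chose the group. By adjusted p alone 9 of these values changed sides of 0.05, of which 7 passed only as reported and 2 only under the alternative. They belonged to Rgs3 in all 4 comparisons, Rgs18 between genotypes after LPS and Rgs1 for LPS in Vim+/+. No paired analysis was possible because the deposited tables hold comparisons with no value for single libraries, and for the same reason leaving out a replicate was not run.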
